A study of Mus musculus with 125 samples.

Results

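Mouse embryos from zygotes with a single pronucleus (1PN) were compared with embryos from zygotes with 2 pronuclei (2PN) in hybrids labelled JF1/Ms x C57BL/6. Of the 125 single-embryo RNA-seq libraries in the series, 3 belonged to the 1PN group (embryos 4, 5 and 6, whose embryo type in silico was 1PN) and 21 to the 2PN group of the same cross, from which embryo 20, labelled as low quality, was left out. The 4 other 1PN embryos of the cross were called parthenogenetic in silico. They formed a group of their own in the shared fit, outside the comparison, and were used for a check of the labels. C57BL/6 and JF1/Ms are inbred strains of different mouse subspecies, the embryos of both groups were F1 hybrids of them, and no further allele or drug treatment is named in the labels. The shared fit also held embryos labelled C57BL/6 x JF1/Ms, and C57BL/6 embryos labelled as parthenotes, which were not hybrids. Zygotes were picked at 10 h after fertilization. Their second polar body was taken off with a micromanipulator, and each embryo was lysed whole at the 2-cell stage, 34 h after fertilization. Neither the mother's strain nor which embryos share parents is given in the labels, so the p-values below measure only the spread between these embryos.

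After fertilization the sperm and egg chromosomes are normally packed into a paternal and a maternal pronucleus, which meet and break down at the first mitosis. A 1PN zygote can hold both genomes in a shared nucleus, or it can be a parthenote with no paternal genome. The 2-cell stage of the mouse is when RNA and protein stored in the oocyte are cleared and the embryonic genome is strongly transcribed, with Zscan4 family genes among its best known transcripts. Genes for making ribosomes, proteasomes and splicing factors follow in the same period.

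The 1PN libraries held 2976889, 3201255 and 2951095 gene counts, against 533116 to 3925201 with a median of 2521857 in 2PN embryos. Of the measures of the library, the share of counts from mitochondrial genes was 2.68%, 2.41% and 3.21% in 1PN embryos and ran from 0.971% to 11.6% with a median of 3.72% in 2PN embryos. Spearman's distance (1 minus rho) to the mean of the 2PN embryos was 0.113, 0.121 and 0.109 for 1PN embryos, while 2PN embryos lay between 0.109 and 0.350 from the mean of the other 2PN embryos, with a median of 0.125. All 3 1PN embryos thus lay among the 2PN embryos nearest to that mean. Between embryos the median rho was 0.844 over the 3 pairs of 1PN embryos, 0.823 over the 63 pairs of a 1PN with a 2PN embryo, and 0.761 over the 210 pairs of 2PN embryos. None of 5 library measures differed past the threshold in exact 2-sided permutation tests over 2024 arrangements, with adjusted p of 0.279 for total counts, mitochondrial share, share of the 50 most counted genes and distance, and of 0.603 for the number of genes with counts (17131 ± 838 in 1PN embryos and 16745 ± 1376 in 2PN embryos, SD, n = 3 and 21). The 5 2PN embryos farthest from the mean, embryos 3, 6, 8, 18 and 21, had distances of 0.197 to 0.350, against at most 0.174 in the other 16. Some values moved by over 1.5 times without them. These are given both ways for edgeR and DESeq2 calls, genes outside the 2PN range and list medians over all tested members. Counts of list members and counts at an unadjusted p are given for all 21 2PN embryos only.

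**Figure D1:**
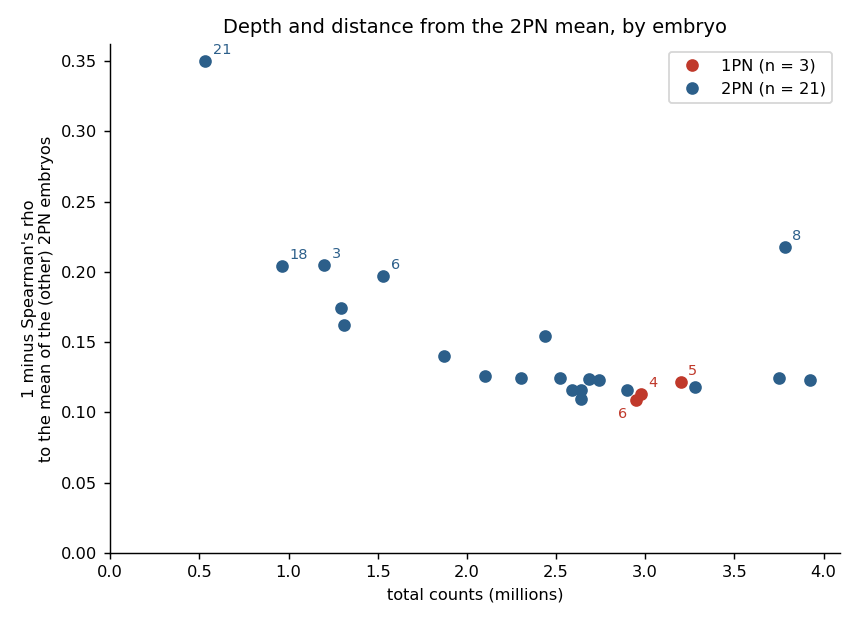
Each point is 1 embryo, with total counts in units of 1000000 on the x axis and 1 minus Spearman's rho to the mean of the 2PN embryos (for a 2PN embryo, the other 2PN embryos) on the y axis. The 1PN embryos sit at 0.109 to 0.121, and the labelled 2PN embryos 3, 6, 8, 18 and 21 stand apart at 0.197 to 0.350.

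The label of a paternal genome was checked first. Zrsr1, a splicing factor retrogene that is expressed from the paternal allele, had 24.8, 23.4 and 16.9 CPM (counts scaled to 1000000 per library, with TMM-adjusted totals) in 1PN embryos, 0 to 3.62 CPM in 1PN embryos called parthenogenetic, and 6.55 to 64.8 CPM with a median of 22.3 CPM in 2PN embryos. Mcts2, another paternally expressed retrogene, had 43.9, 30.5 and 53.8 CPM in 1PN embryos, 0 CPM in all 4 embryos called parthenogenetic, and 2.70 to 132 CPM in 2PN embryos. For both genes the 1PN embryos lay inside the 2PN range and above every embryo called parthenogenetic. Snrpn, of the Prader-Willi imprinted region, had 510, 396 and 323 CPM in 1PN embryos, 77.3 to 190 CPM in embryos called parthenogenetic and 40.2 to 617 CPM in 2PN embryos. Summed counts of 9 Y-linked genes, which only a sperm can bring, were 535, 970 and 7 in 1PN embryos, 1 to 2 in embryos called parthenogenetic, and 1 to 1174 in 2PN embryos, 8 of which had at least 50. Peg3 and Impact did not separate the groups. Zrsr1 and Mcts2 lie within introns of other genes, so reads may be shared. The sources used here do not give the method of the in silico call.

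**Figure D2:**
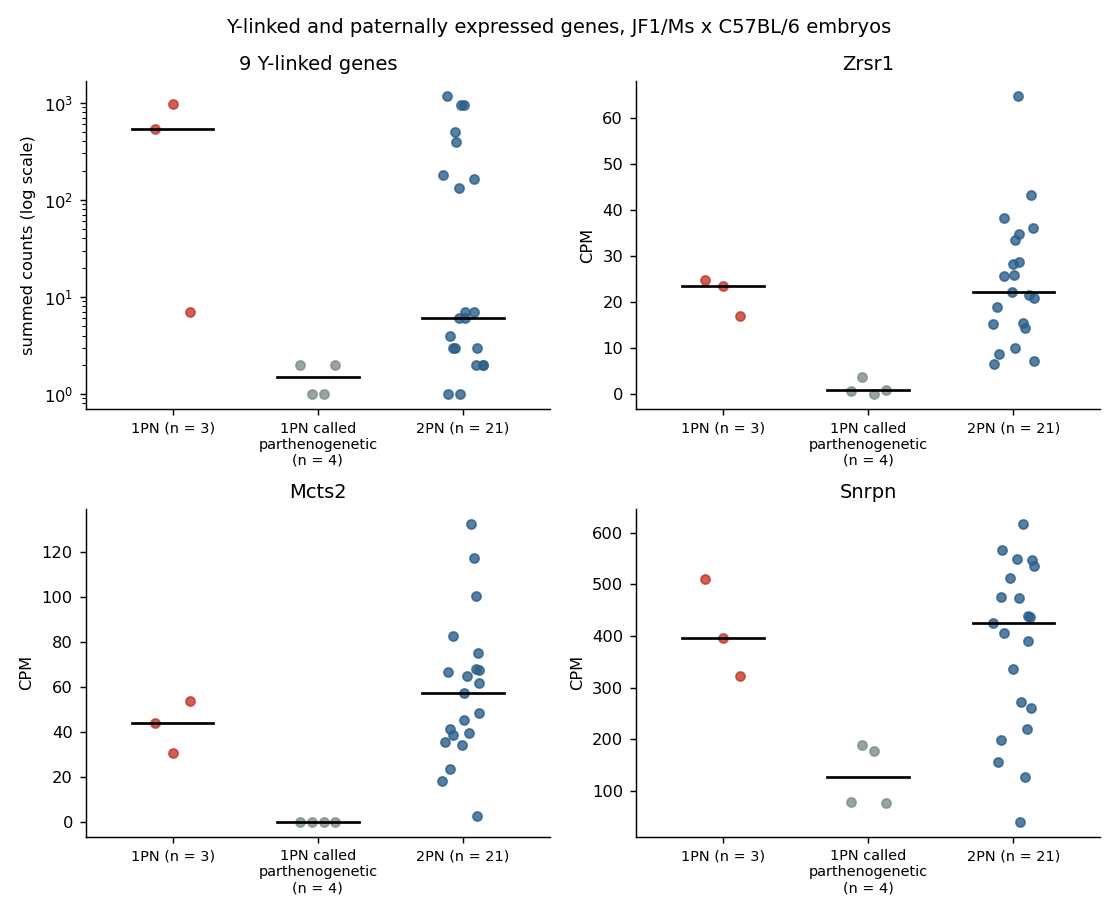
Points are embryos and bars are medians, for summed counts of 9 Y-linked genes (log axis) and for Zrsr1, Mcts2 and Snrpn in CPM. The 1PN embryos had 16.9 to 24.8 CPM of Zrsr1, against at most 3.62 CPM in 1PN embryos called parthenogenetic and 6.55 to 64.8 CPM in 2PN embryos.

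Markers of the stage were present, and most markers of cumulus cells and sperm had no count in 1PN embryos. The 41 measured genes of a 2-cell transcript list summed to 13251 to 19948 CPM in 1PN embryos and 4568 to 31945 CPM in 2PN embryos, and 63 oocyte-derived genes to 8167 to 12509 CPM and 5033 to 31355 CPM. Of 19 cumulus and granulosa cell markers, 13 had no count in any 1PN embryo, among them Amh, Foxl2, Fshr, Has2 and Ptx3, and 4 had none in any 2PN embryo. Among those with counts was Star, at 1.53, 11.5 and 2.58 CPM in 1PN embryos. The list summed to 151 to 223 CPM in 1PN embryos and 39.4 to 368 CPM in 2PN embryos. Star was a small part of that sum in 1PN embryos. Of the list's 11 tested members, 1 averaged 10 CPM or more in 1PN or 2PN embryos, at a log2 fold change of 0.14. Of 21 sperm and testis markers 16 were at 0 in all 1PN embryos, including Prm1, Prm2, Tnp1 and Tnp2, and 5 were at 0 in all 2PN embryos. Odf2, of the same list, had 63.4, 28.5 and 72.9 CPM in 1PN embryos. The sums were 59.7 to 104 CPM in 1PN embryos and 58.2 to 968 CPM in 2PN embryos. Blood, immune and connective tissue markers summed to 6.44 to 25.4 CPM in 1PN embryos and 4.98 to 46.4 CPM in 2PN embryos. Of 13, 6 were at 0 in all 1PN embryos, among them Cd3e, Col1a1, Col3a1 and Alb, and 4 were at 0 in all 2PN embryos. A rare marker has more chances of a count in 21 embryos than in 3. The numbers of markers at 0 are therefore not comparable between the groups.

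The main comparison asked which transcripts differ when an embryo with both parental genomes begins with a single pronucleus. With edgeR's quasi-likelihood test 2 of 24380 genes were higher in 1PN embryos (0.0082%) and 0 were lower (0%), at a Benjamini-Hochberg adjusted p under 0.05. At an unadjusted p under 0.05, 681 genes were higher (2.79%) and 1551 lower (6.36%). DESeq2 called 4 genes higher (0.0164%) and 677 lower (2.78%), and limma voom called 5 higher (0.0205%) and 38 lower (0.156%). Neither of edgeR's 2 genes was called by limma voom or by DESeq2, which gave no adjusted p for them, and 23 of limma voom's 43 genes were also called by DESeq2. Of the 677 genes that DESeq2 called lower, 554 had a 2PN embryo at or below the lowest 1PN embryo, and 172 had no count in any 1PN embryo. Without 2PN embryos 3, 6, 8, 18 and 21, a choice made after seeing the data, DESeq2 called 145 genes lower and edgeR 0.

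Both edgeR calls rested on a single embryo. 1700016D06Rik, a gene model on chromosome 8 at 11655478 to 11678749 (GRCm38), had 0, 0 and 31.7 CPM in 1PN embryos 4, 5 and 6, against 0 to 3.21 CPM with a median of 0 in 2PN embryos. Its log2 fold change was 3.46 ± 0.72 (SE; edgeR, adjusted p = 0.034; above the 2PN median in 1 of 3 embryos), and without embryo 6 the adjusted p was 0.814. Gm34885, a gene model on chromosome 9 at 37312136 to 37324368, had 44.3, 0 and 0 CPM in 1PN embryos and 0 to 37.8 CPM with a median of 0.423 CPM in 2PN embryos. It stood at 3.11 ± 0.60 (edgeR, adjusted p = 0.0112; above the 2PN median in 1 of 3 embryos), and at an adjusted p of 0.760 without embryo 4. In each gene the 2 other 1PN embryos had no count, and the groups overlap. The gene models have no known role.

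**Figure D3:**
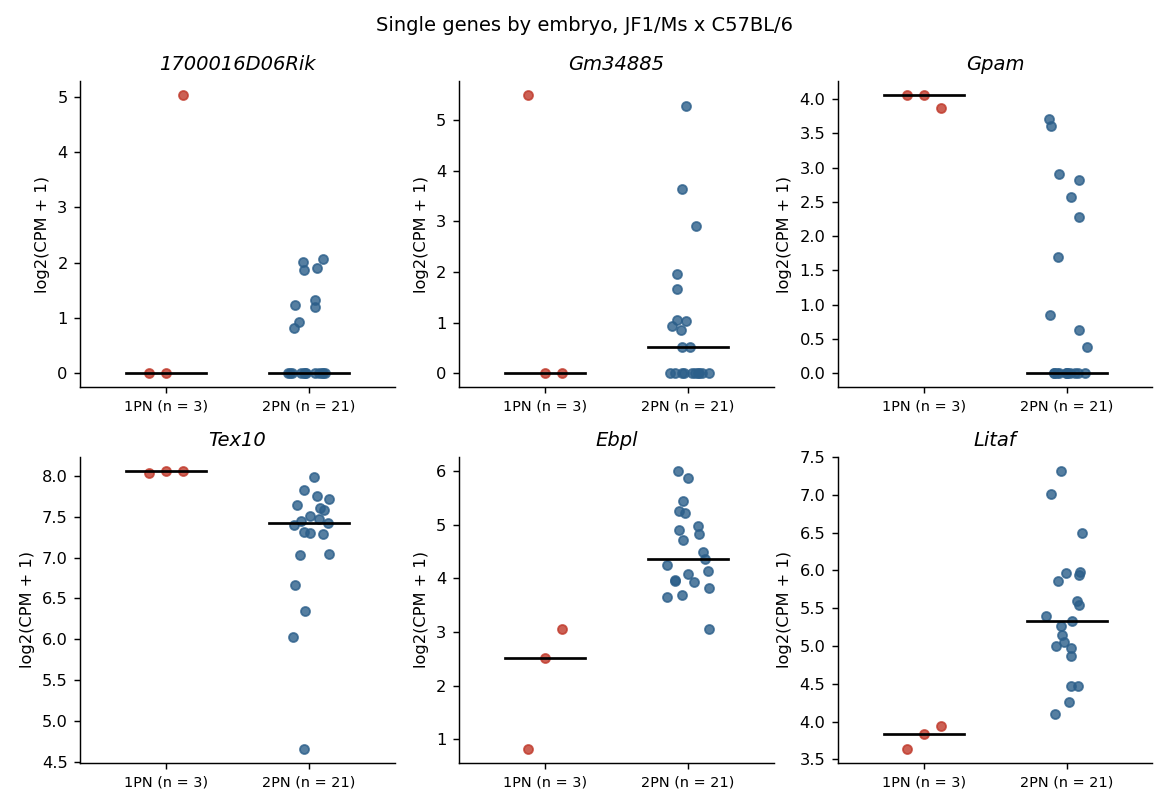
Points are embryos and bars are medians, on the log2(CPM + 1) scale, 1PN left of 2PN in each panel. A single 1PN embryo is high for 1700016D06Rik and for Gm34885, whereas all 3 1PN embryos lie above the 2PN range for Gpam and Tex10 and below it for Ebpl and Litaf.

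Genes in which the 3 1PN embryos did not overlap with any 2PN embryo numbered 11 of 24380 (0.0451%), with 8 above all 2PN embryos (0.0328%) and 3 below them (0.0123%). None of the 11 passed edgeR. Gpam, the mitochondrial acyltransferase that begins glycerolipid synthesis (chromosome 19, 55067635 to 55127319), had 15.7, 15.6 and 13.6 CPM in 1PN embryos and 0 to 12.1 CPM with a median of 0 in 2PN embryos. The 1PN embryos were close to each other, and most 2PN embryos had few or no counts. Its log2 fold change was 2.86 ± 0.77 (edgeR, adjusted p = 0.309; limma voom, adjusted p = 0.0415; above the 2PN median in 3 of 3 embryos). C1ql1, a secreted protein of the C1q family known as a synaptic organizer (chromosome 11, 102939264 to 102946716), had 31.3, 42.7 and 24.3 CPM in 1PN embryos and 0 to 22.97 CPM with a median of 9.46 CPM in 2PN embryos, a log2 fold change of 1.72 ± 0.49 (edgeR, adjusted p = 0.324). Tex10, a partner in a complex that matures large ribosomal subunits (chromosome 4, 48430858 to 48473464), had 261, 266 and 267 CPM in 1PN embryos and 24.2 to 252 CPM with a median of 170 CPM in 2PN embryos. Chmp5, a subunit of the membrane-cutting ESCRT machinery on the same chromosome, had 187, 189 and 187 CPM in 1PN embryos and 15.1 to 184 CPM with a median of 104 CPM in 2PN embryos. In Tex10 and Chmp5 the gap to the highest 2PN embryo was narrow, and the log2 fold changes were 0.72 ± 0.34 and 0.96 ± 0.36 (edgeR, adjusted p = 0.511 and 0.397).

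Below the whole 2PN range lay Litaf and Ebpl. Litaf, an endosomal membrane protein (chromosome 16, 10959273 to 10993121), had 11.5, 13.2 and 14.4 CPM in 1PN embryos and 16.2 to 159 CPM with a median of 39.2 CPM in 2PN embryos. Its log2 fold change was -1.97 ± 0.49 (edgeR, adjusted p = 0.309; DESeq2, adjusted p = 0.000701; below the 2PN median in 3 of 3 embryos). Ebpl, a relative of a sterol isomerase (chromosome 14, 61339763 to 61360445), had 0.764, 4.75 and 7.36 CPM in 1PN embryos and 7.37 to 63.6 CPM with a median of 19.5 CPM in 2PN embryos, a log2 fold change of -2.46 ± 0.59 (edgeR, adjusted p = 0.264). The third gene below the range was the pseudogene 1700084M14Rik. Above it, Arsj, an arylsulfatase, had the widest gap, with 8.79, 7.12 and 8.84 CPM in 1PN embryos and 0 to 3.24 CPM with a median of 0 in 2PN embryos. Arsj, 1700084M14Rik, Wdr5b, Gm37179 and Gm48746 complete the 11 and were named after their values were seen. Scaled by library totals alone, 6 genes lay outside the 2PN range in place of 11.

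The 10 genes chosen for positive fold changes had the smallest unadjusted p among protein-coding genes with a standard symbol and 10 CPM or more in 1PN embryos, and Gpam and C1ql1 were among them. Gtsf1, a cofactor of small RNA silencing in germ cells, had 11.1, 32.2 and 23.9 CPM in 1PN embryos and 0 to 17.9 CPM with a median of 5.14 CPM in 2PN embryos. It stood at 1.77 ± 0.49 on the log2 scale (edgeR, adjusted p = 0.309; DESeq2, adjusted p = 0.0379; limma voom, adjusted p = 0.0363). Ncaph2, a subunit of the condensin II complex that compacts chromosomes, had 77.2, 80.0 and 60.0 CPM in 1PN embryos and 2.16 to 96.8 CPM with a median of 27.5 CPM in 2PN embryos. Only 1 of the 21 2PN embryos exceeded all 3 1PN embryos, and 20 lay below them. Lsm8, of the ring that binds a spliceosomal RNA, had 129, 103 and 107 CPM in 1PN embryos and 2.88 to 110 CPM with a median of 31.8 CPM in 2PN embryos. Trnt1, which adds the CCA end to tRNAs, had 232, 301 and 353 CPM in 1PN embryos and 20.1 to 315 CPM with a median of 66.5 CPM in 2PN embryos. The log2 fold changes of Ncaph2, Lsm8 and Trnt1 were 1.21 ± 0.35, 1.58 ± 0.47 and 1.35 ± 0.41, each above the 2PN median in 3 of 3 embryos.

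The remaining 4 of these 10 genes differed among the 1PN embryos themselves. Tomm34, a co-chaperone of mitochondrial import, had 206, 131 and 40.9 CPM in 1PN embryos and 11.5 to 114 CPM with a median of 45.8 CPM in 2PN embryos. Ddx4, the germ cell RNA helicase Vasa, had 1.15, 68.5 and 28.7 CPM in 1PN embryos and 0 to 60.0 CPM with a median of 4.54 CPM in 2PN embryos. Rbm45, an RNA-binding protein, had 1.53, 19.7 and 54.1 CPM in 1PN embryos and 0 to 34.6 CPM in 2PN embryos. In Ddx4 and Rbm45 embryo 4 was low and embryos 5 and 6 were high. Igfbp3, which binds insulin-like growth factors, likewise had 0.382, 23.7 and 30.2 CPM in 1PN embryos and 0 to 18.8 CPM in 2PN embryos. Over all 10 genes the edgeR adjusted p ran from 0.309 to 0.352 and the log2 fold change from 1.21 to 2.88.

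Genes with negative fold changes included membrane traffic and signalling proteins. Rras2, a Ras family GTPase, had 7.64, 0.678 and 6.26 CPM in 1PN embryos and 0 to 171 CPM with a median of 28.8 CPM in 2PN embryos. Dock3, an exchange factor for Rac, had 3.44, 1.36 and 1.10 CPM in 1PN embryos and 0 to 52.7 CPM with a median of 12.2 CPM in 2PN embryos. All 3 1PN embryos were below the 2PN median in both, but 2PN embryos at the same low levels occurred. Fgd6, an exchange factor for Cdc42, had 12.2, 18.6 and 27.2 CPM in 1PN embryos and 16.8 to 544 CPM with a median of 53.1 CPM in 2PN embryos. Pacsin1, which bends membranes in endocytosis, had 10.7, 7.12 and 9.94 CPM in 1PN embryos and 8.43 to 125 CPM with a median of 26.1 CPM in 2PN embryos. Their log2 fold changes were -2.93 ± 0.74 for Rras2, -3.08 ± 0.79 for Dock3, -2.48 ± 0.65 for Fgd6 and -2.31 ± 0.61 for Pacsin1.

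Further genes of this kind act in protein quality control and in ion transport. Ngly1, which strips sugar chains from misfolded glycoproteins, had 1.15, 0 and 0.736 CPM in 1PN embryos and 0 to 36.7 CPM with a median of 11.5 CPM in 2PN embryos. Tmem63b, a cation channel gated by membrane tension, had 1.15, 6.78 and 2.21 CPM in 1PN embryos and 2.11 to 68.7 CPM with a median of 23.3 CPM in 2PN embryos. For the 10 genes that the naming rule chose for negative fold changes, Ebpl and Litaf included, the edgeR adjusted p ran from 0.264 to 0.309, and DESeq2 called all 10 lower while limma voom called 0. They were chosen for their p in this comparison, so these counts add no support.

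Precision was low. In 9411 genes at 10 CPM or more on average in 1PN or 2PN embryos, the SE of the log2 fold change had a median of 0.51. The approximate 95% interval kept inside a 2-fold change for 1385 of them (14.7%). The median log2 fold change over these genes was 0.01, and it was -0.38 over all 24380 genes tested (-0.22 without the 5 2PN embryos). No member of any of 23 gene lists passed edgeR, against 0.0082% of all genes. Lists are therefore described by the median log2 fold change, by members with an unadjusted p under 0.05, and by members for which all 3 1PN embryos lay above (14.9% of all genes, 26.7% of genes at 10 CPM or more) or below the 2PN median (11.3% and 16.5%). Each library is a whole 2-cell embryo and is scaled to its own adjusted total, so a difference in RNA per embryo would not be seen.

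Genes for ribosome assembly leaned to higher values in 1PN embryos. Of 74 tested, 67 had a log2 fold change above 0, against 35% of all genes and 50.3% of genes at 10 CPM or more, and the median was 0.50. All 3 1PN embryos were above the 2PN median for 45 and below it for 2, and 8 had an unadjusted p under 0.05 with a positive and 0 with a negative fold change, against 2.79% positive among all genes and 4.7% at 10 CPM or more. The mean level of the list on the log2(CPM + 1) scale was 7.45, 7.74 and 7.50 in 1PN embryos and 3.99 to 7.91 with a median of 7.07 in 2PN embryos, so the 1PN embryos lay in the upper part of the 2PN range, with 4, 1 and 4 of the 21 2PN embryos above them. Dimt1, a methyltransferase of small-subunit rRNA, had 196, 264 and 227 CPM in 1PN embryos and 4.54 to 226 CPM with a median of 76.8 CPM in 2PN embryos, a log2 fold change of 1.17 ± 0.46 (edgeR, adjusted p = 0.416). Gnl2, a nucleolar GTPase of the large subunit, stood at 1.17 ± 0.50 (adjusted p = 0.462), Ddx18, a nucleolar helicase, at 1.00 ± 0.45 (adjusted p = 0.481) and Utp4, of the small-subunit processome, at 0.97 ± 0.43 (adjusted p = 0.477). Without 2PN embryos 3, 6, 8, 18 and 21 the list median was 0.29. Low 2PN levels and shallow libraries coincided in part. Embryos 21, 3, 6, 10 and 19, at 3.99, 5.39, 5.32, 5.39 and 6.34, had 533116, 1200540, 1531990, 1296379 and 1308566 counts. Embryos 8 and 14, at 4.78 and 5.78, had 3784871 and 2440579 counts. Embryo 18, at 7.04 and so near the 2PN median, had 962497. The cause of the low levels was not tested.

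Proteasome genes had a similar pattern. Of 48 tested, 39 had a fold change above 0, against 50.3% of genes at 10 CPM or more, and the median was 0.46. All 3 1PN embryos were above the 2PN median for 28 and below it for 1, against 26.7% and 16.5% at 10 CPM or more. The mean level of the list was 5.87, 6.50 and 5.99 in 1PN embryos and 3.74 to 6.32 with a median of 5.60 in 2PN embryos, and embryo 5 exceeded every 2PN embryo. At an unadjusted p under 0.05, 8 members were positive and 1 negative. The positive share was 16.7%, against 2.79% of all genes and 4.7% at 10 CPM or more. Psmb10, a catalytic subunit of the immunoproteasome, had 15.7, 82.7 and 111 CPM in 1PN embryos and 0 to 80.3 CPM with a median of 11.01 CPM in 2PN embryos, a log2 fold change of 1.66 ± 0.54 (edgeR, adjusted p = 0.36). Psmd9, an assembly chaperone, stood at 1.28 ± 0.47 (adjusted p = 0.397). Without the 5 2PN embryos that stood apart the median was 0.33.

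Splicing factors, ribosomal proteins, DNA replication and nuclear transport genes had smaller positive medians. Over 50 splicing genes the median was 0.23, with 4 members positive and 1 negative at an unadjusted p under 0.05. The positive share was 8%, against 2.79% of all genes and 4.7% at 10 CPM or more. The list was led by Sf3a3, a spliceosome component, with 202, 223 and 183 CPM in 1PN embryos. Sf3a3 had 5.68 to 228 CPM with a median of 74.9 CPM in 2PN embryos, a log2 fold change of 1.14 ± 0.46 (edgeR, adjusted p = 0.438). Ribosomal protein genes, whose processed copies share reads and make single members uncertain, had a median of 0.23. Of 77, 62 were above 0, against 50.3% of genes at 10 CPM or more. The medians were 0.07 for splicing and 0.06 for ribosomal proteins without the 5 2PN embryos. In DNA replication the median of 52 genes was 0.14 (0.08 without the 5 2PN embryos), with Orc6, of the origin recognition complex, at a log2 fold change of 0.55 ± 0.27 (edgeR, adjusted p = 0.52). Nuclear envelope and transport genes went both ways, with a median of 0.20 over 70. Ranbp1, a regulator of the Ran GTPase, stood at 1.16 ± 0.44 and Nup54, a nuclear pore subunit, at 1.12 ± 0.45, while the importins Kpna3 and Ipo8 stood at -1.09 ± 0.38 and -1.54 ± 0.57 (edgeR, adjusted p = 0.4, 0.433, 0.377 and 0.397 in this order). Mitosis genes had a median of -0.00 (-0.13 without the 5 2PN embryos). At an unadjusted p under 0.05, 2 members were negative (3.7%, against 6.36% of all genes and 9.78% at 10 CPM or more). Among these was Cdc25a, the phosphatase that activates cyclin-dependent kinases, at -1.24 ± 0.57.

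**Figure D4:**
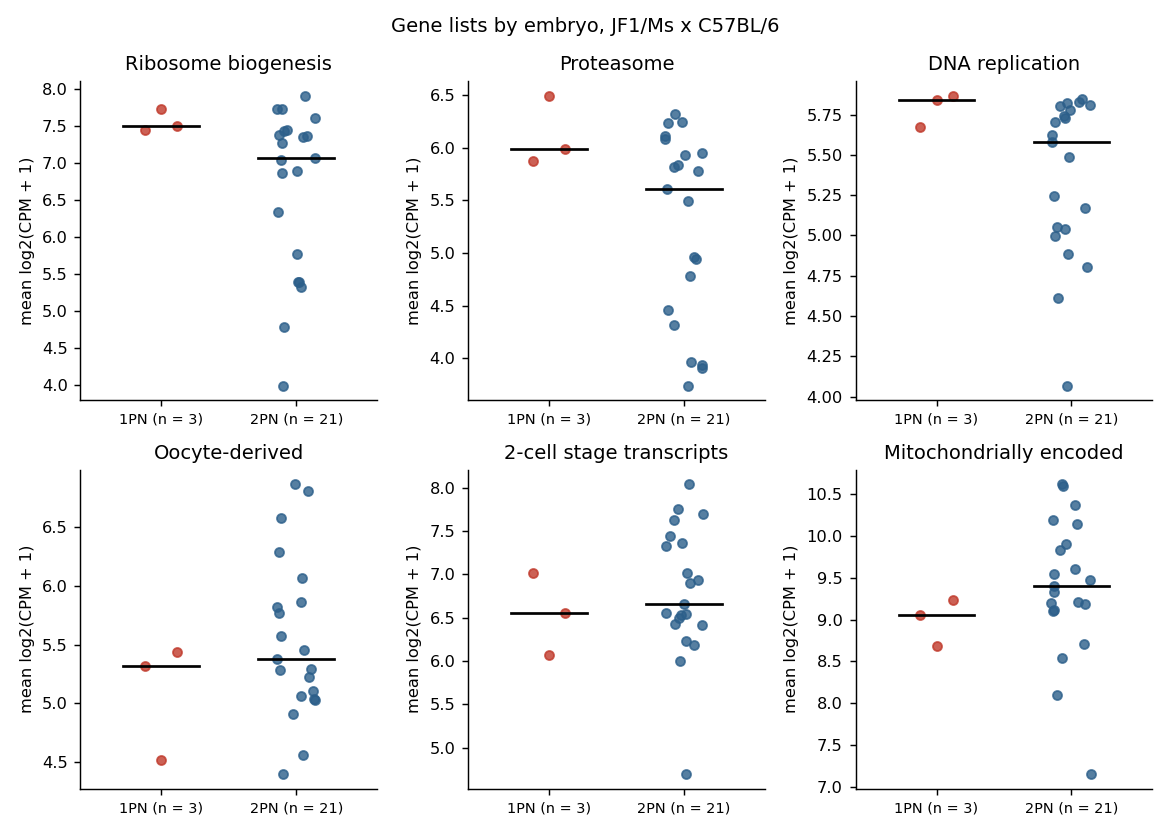
Points are embryos, 1PN left of 2PN in each panel, and bars are medians of the mean log2(CPM + 1) over each gene list. The 1PN embryos lie in the upper part of the 2PN range for ribosome biogenesis (7.45 to 7.74, against 3.99 to 7.91 in 2PN embryos) and inside it for oocyte-derived and 2-cell stage transcripts.

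Transcripts inherited from the oocyte leaned the other way. Of 63 tested, 10 had a fold change above 0 and the median was -0.83. Above 0 were 35% of all genes and 50.3% of genes at 10 CPM or more. At an unadjusted p under 0.05, 12 were negative and 0 positive, against 6.36% negative among all genes and 9.78% at 10 CPM or more. DESeq2 called 8 lower, against 2.78% of all genes and 399 of the 9411 genes at 10 CPM or more. The mean level was 5.32, 4.52 and 5.44 in 1PN embryos and 4.39 to 6.87 with a median of 5.38 in 2PN embryos, so embryos 4 and 6 were at the 2PN median and embryo 5 near the low end. Cnot6l, a deadenylase that helps clear maternal mRNA, had 30.9, 26.4 and 88.0 CPM in 1PN embryos and 23.3 to 238 CPM with a median of 118 CPM in 2PN embryos, a log2 fold change of -1.40 ± 0.45 (edgeR, adjusted p = 0.36). Kit, the receptor for stem cell factor, stood at -1.87 ± 0.56 (adjusted p = 0.331), Ybx2, which stores mRNA in the oocyte, at -2.33 ± 0.74 (adjusted p = 0.36) and Elavl2, an RNA-binding protein, at -1.57 ± 0.53 (adjusted p = 0.371). Without the 5 2PN embryos that stood apart the list median was -0.43.

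Transcripts of the 2-cell stage varied more between 2PN embryos (SD of the list level 0.76) than the groups differed in mean level (-0.25). The same held for ribosome biogenesis (1.11 and 0.89), proteasome (0.89 and 0.86) and oocyte-derived genes (0.69 and -0.45). The level of the 2-cell list was 7.02, 6.07 and 6.55 in 1PN embryos and 4.69 to 8.04 with a median of 6.66 in 2PN embryos. The median log2 fold change of 41 genes was -0.26, with 3 negative and 0 positive at an unadjusted p under 0.05. The negative share was 7.32%, against 6.36% of all genes and 9.78% at 10 CPM or more. With limma voom the median was 0.05, and without the 5 2PN embryos it was -0.15. Zscan4d, of the family that marks genome activation, had 130, 33.9 and 149 CPM in 1PN embryos and 0.856 to 2543 CPM with a median of 194 CPM in 2PN embryos, and Zscan4a had 13.8, 21.02 and 57.4 CPM in 1PN embryos and 0 to 1747 CPM with a median of 54.2 CPM in 2PN embryos. Their fold changes of -2.17 ± 1.00 and -2.29 ± 1.00 had edgeR adjusted p of 0.495 and 0.469. Copies of this family are near-identical, so reads may be split among them and single members are uncertain.

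Among stress and damage genes, the 37 p53 targets had a median of -0.67, and of -0.21 over the 25 at 10 CPM or more. At an unadjusted p under 0.05, 8 were negative and 0 positive (21.6% negative, against 6.36% of all genes and 9.78% at 10 CPM or more). DESeq2 called 6 lower, against 2.78% of all genes and 399 of the 9411 genes at 10 CPM or more. Cdkn1a, an inhibitor of cyclin-dependent kinases, had 6.49, 4.07 and 5.15 CPM in 1PN embryos and 0 to 90.2 CPM with a median of 19.7 CPM in 2PN embryos, and 5 of the 21 2PN embryos lay below all 1PN embryos. Plk2, a kinase of the stress response, stood at -3.34 ± 1.26, Plk3 at -2.49 ± 0.89 and Rrm2b, a ribonucleotide reductase subunit for DNA repair, at -1.56 ± 0.52 (edgeR, adjusted p = 0.4, 0.397 and 0.36 in this order). The list median was -0.33 without the 5 2PN embryos. Heat shock and stress genes had a median of -0.32 over 47, close to the -0.38 of all genes, with 5 negative and 0 positive at an unadjusted p under 0.05 (10.6% negative, near the background of 9.78% at 10 CPM or more). Gpx1, a glutathione peroxidase, had 19.5, 30.2 and 32.4 CPM in 1PN embryos and 14.6 to 408 CPM with a median of 108 CPM in 2PN embryos, a log2 fold change of -2.16 ± 0.64 (edgeR, adjusted p = 0.331; DESeq2, adjusted p = 0.00377). Hspb1, a small heat shock protein, had 7.64, 5.09 and 9.57 CPM in 1PN embryos and 0 to 233 CPM with a median of 28.4 CPM in 2PN embryos. Nqo1, a quinone reductase, had no count in any 1PN embryo and a count in 19 of 21 2PN embryos, with a 2PN mean of 6.30 CPM ± 6.64 (SD, n = 21). That mean was 17.4-fold above a floor of 3 counts over the 1PN group. The ratio leaves out the spread of the 2PN embryos, so it is no lower bound on the difference. For Nqo1 the approximate 95% interval of the log2 fold change ran from -11.9 to -2.47. The adjusted p of Nqo1 was 0.364 for edgeR, while DESeq2 gave 0.00149 and limma voom 0.0283.

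Energy metabolism was mixed. All 13 mitochondrially encoded genes had a negative fold change, with a median of -0.61, and for 12 of them all 3 1PN embryos were below the 2PN median, yet 0 had an unadjusted p under 0.05. mt-Nd1, a subunit of respiratory complex I, had 4302, 3296 and 4505 CPM in 1PN embryos and 987 to 14916 CPM with a median of 5351 CPM in 2PN embryos. These genes share 1 genome and partly the same reads with nuclear copies, so they are not independent of each other, and the 2PN embryo with the highest mitochondrial share, embryo 21 at 11.6%, was also the shallowest. Nuclear genes of the respiratory chain had a median of 0.15 over 74 (0.08 without the 5 2PN embryos), with Ndufb7 at 1.29 ± 0.55 and Sdhb at -3.33 ± 1.12 (edgeR, adjusted p = 0.462 and 0.37). Glycolysis genes had a median of -0.64 over 31, with 1 positive and 4 negative at an unadjusted p under 0.05. The negative share was 12.9%, against 6.36% of all genes and 9.78% at 10 CPM or more. The positive share was 3.23%, against 2.79% of all genes. The positive member was Pfkfb1, an isoform of the enzyme that sets fructose 2,6-bisphosphate levels, with 0.764, 4.75 and 2.21 CPM in 1PN embryos and 0 to 2.70 CPM with a median of 0 in 2PN embryos (log2 fold change 2.96 ± 1.25; edgeR, adjusted p = 0.462; DESeq2, adjusted p = 0.0396). Among the negative members was Slc2a1, the main glucose transporter of the embryo, at 0, 0.678 and 3.31 CPM in 1PN embryos and 0 to 60.0 CPM with a median of 4.75 CPM in 2PN embryos.

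Regulators of the first lineages also went both ways, with a median of -0.66 over 32 genes (-0.41 without the 5 2PN embryos) and of 0.19 over the 16 at 10 CPM or more. Dppa2, which primes developmental promoters, had 384, 707 and 661 CPM in 1PN embryos and 48.4 to 785 CPM with a median of 228 CPM in 2PN embryos, a log2 fold change of 1.08 ± 0.42 (edgeR, adjusted p = 0.402). Tfap2c, a trophectoderm factor, had 118, 219 and 83.6 CPM in 1PN embryos and 5.34 to 161 CPM with a median of 77.1 CPM in 2PN embryos. For both, all 3 1PN embryos exceeded the 2PN median. Pou5f1, the pluripotency factor Oct4, had 4.58, 6.78 and 1.84 CPM in 1PN embryos and 0 to 669 CPM with a median of 5.16 CPM in 2PN embryos, so its fold change of -3.52 ± 1.09 (edgeR, adjusted p = 0.359) rested on high 2PN embryos. Esrrb stood at -2.94 ± 0.98 (adjusted p = 0.363).

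Imprinted genes and chromatin genes had medians near 0 at 10 CPM or more. Paternally expressed genes had a median of -0.33 over 29 genes, close to that of all genes, and of 0.03 over the 16 at 10 CPM or more. Mest had 11.5, 3.39 and 14.7 CPM in 1PN embryos and 1.52 to 210 CPM with a median of 18.5 CPM in 2PN embryos, and Inpp5f had 2.29, 2.03 and 1.84 CPM in 1PN embryos and 0 to 48.4 CPM in 2PN embryos. Maternally expressed genes had a median of -0.65 over 23 genes and of -0.14 over 10 at that level, with Trappc9 at -2.90 ± 0.79 (edgeR, adjusted p = 0.309; DESeq2, adjusted p = 0.00175). Chromatin and DNA methylation genes had a median of -0.09 over 53 (0.06 with limma voom and -0.15 without the 5 2PN embryos). At an unadjusted p under 0.05, 1 was positive and 5 were negative. The negative share of 9.43% was near the background of 9.78% at 10 CPM or more. Among the negative members was Kdm6b, a histone demethylase, at -1.48 ± 0.56 (edgeR, adjusted p = 0.4). Apoptosis genes had a median of -0.08 over 35, and of 0 without the 5 2PN embryos. Y-linked genes had a median of 0.58 over 8, and of 0.36 without the 5 2PN embryos. Mostly rare markers of other cells had medians of -1.11 for 11 cumulus and granulosa genes, -1.95 for 12 sperm and testis genes and -0.32 for 9 blood, immune and connective tissue genes. In a fit of this cross alone, which tested fewer genes, the cumulus and granulosa median was 0.12 and the sperm and testis median -0.45, and without the 5 2PN embryos they were -0.65 and -1.75.

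In the reciprocal cross C57BL/6 x JF1/Ms, 11 1PN embryos were compared with 43 2PN embryos in the same fit, and 48 genes were higher (0.197%) and 0 lower. The difference of the 1PN effect between crosses, tested directly, gave 0 of 24380 genes with edgeR, 2170 at an unadjusted p under 0.05 (8.9%), 515 with DESeq2 (2.11%) and 5 with limma voom (0.0205%). Without 2PN embryos 3, 6, 8, 18 and 21 of JF1/Ms x C57BL/6, DESeq2 gave 143. Of the 10 genes named above for positive fold changes 7 were also above 0 in C57BL/6 x JF1/Ms, where they ran from -0.57 to 0.42, and of the 10 chosen likewise for negative ones 4 were below 0 there, where they ran from -0.39 to 0.47. None of the 20 passed edgeR there. Litaf, for instance, stood at -1.97 ± 0.49 in JF1/Ms x C57BL/6 and at 0.35 ± 0.21 in C57BL/6 x JF1/Ms, and the adjusted p of that difference was 0.157. Ribosome biogenesis genes had a median of 0.50 in JF1/Ms x C57BL/6 and of -0.09 in C57BL/6 x JF1/Ms, proteasome genes 0.46 and -0.03, and oocyte-derived genes -0.83 and -0.21.

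**Figure D5:**
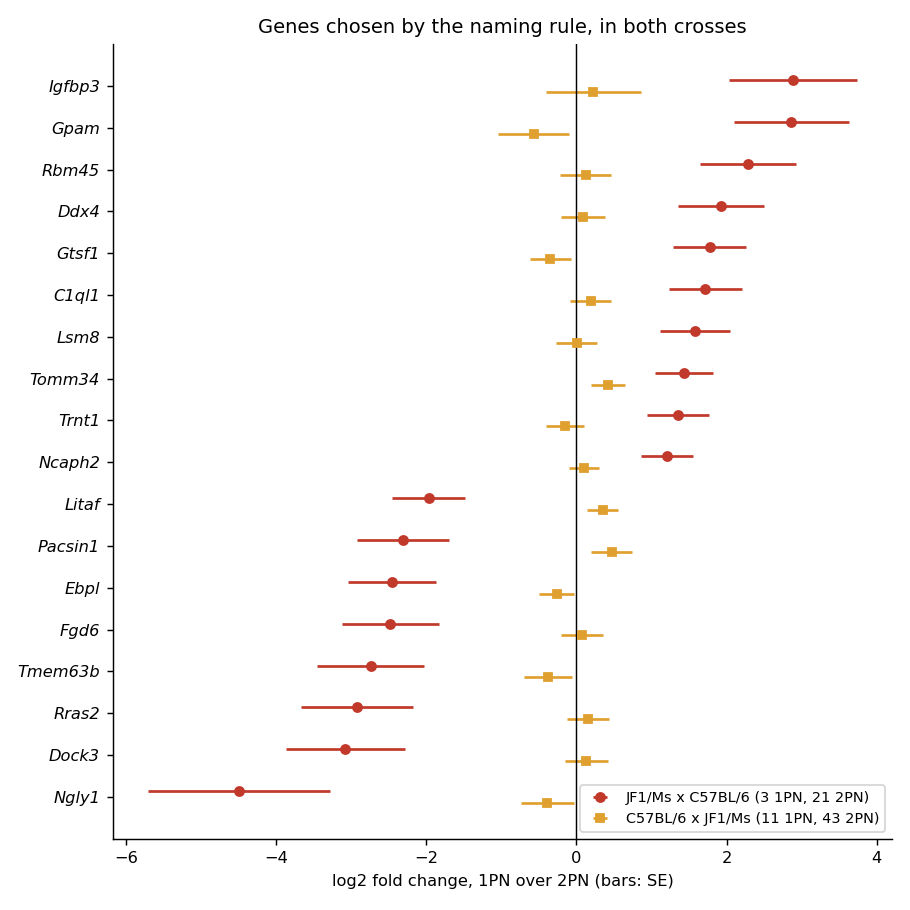
Points are log2 fold changes of 1PN over 2PN embryos with their SE, for 18 of the 20 genes chosen by p in JF1/Ms x C57BL/6 (circles), with the same genes in C57BL/6 x JF1/Ms (squares). The circles run from -4.49 to 2.88, and the squares lie between -0.57 and 0.47.

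Genes known for the other cross did not recur as calls. Irx2, an Iroquois homeobox transcription factor, had 11.5, 0.339 and 0 CPM in 1PN embryos of JF1/Ms x C57BL/6 and 0 to 2.25 CPM in 2PN embryos, so its fold change of 3.47 ± 1.64 (edgeR, adjusted p = 0.511) rested on embryo 4. Usp17la, a deubiquitinase gene of a multicopy 2-cell family, had 26.7, 7.12 and 43.8 CPM in 1PN embryos and 1.92 to 836 CPM with a median of 49.0 CPM in 2PN embryos. Its log2 fold change was -2.89 ± 1.36 in this cross (edgeR, adjusted p = 0.511). In C57BL/6 x JF1/Ms it was 2.92 ± 0.54 (edgeR, adjusted p = 0.000441), and the edgeR adjusted p of that difference was 0.324. Zscan4b, Pramef6 and Hip1, like Usp17la, had 1PN values inside the 2PN range. They had 1.02 to 5.15, 40.9 to 84.8 and 8.47 to 21.8 CPM in 1PN embryos, against 0 to 229, 7.21 to 312 and 3.03 to 80.5 CPM in 2PN embryos.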

How the data were processed

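The table deposited by the authors gives unscaled estimated counts for each gene, and 28.4% of its values above 0 were fractional. Per the submitters' processing notes, HISAT2 2.0.5, featureCounts 2.0.0 and GRCm38 were used, and libraries were made with SMART-Seq v4 and Nextera XT kits per the labels' protocols. The sources used here do not give the annotation release, the strand setting or the handling of shared reads. Coordinates come from a RefSeq table of GRCm38.p6.

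Counts were rounded to whole numbers and tested with edgeR 4.0.16 in R 4.3.3 (quasi-likelihood, newer adjusted deviances, TMM, filterByExpr by group) over the means of 7 groups with 121 embryos, with Benjamini-Hochberg adjustment over 24380 genes and a threshold of 0.05. The contrast was 1PN minus 2PN. The SE is the absolute log2 fold change over the root of F, and approximate 95% intervals use it. DESeq2 1.42.0 and limma 3.58.1 (voom) were alternatives. DESeq2 gave no adjusted p for 8987 genes. Other alternatives were other scalings, filters, sets of embryos and edgeR's older fit. Scaled values are CPM with TMM factors, and list levels are means of log2(CPM + 1). The exact permutation tests are adjusted over 5 measures. Floors and intervals cover counting error or the spread of the fit only, since the reads carry no molecular identifiers and are not independent.

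Genes were named by a rule: with a group mean of 10 CPM or more where higher, a count in 0.5 or more of those embryos, and no gene models and pseudogenes, the 10 in each direction that pass with the largest fold change, filled up by smallest p. Added were every call if at most 5, up to 5 per direction outside the 2PN range with the widest gap under the same limits on CPM and symbol, up to 4 per list with the smallest p, and 5 genes known for the other cross. Not all are printed, and some are not reported here. Members and lists were chosen with earlier results of these data known. No libraries of a group looked like copies (lowest chi-square per gene 33.2 in 1PN and 22.4 in 2PN embryos).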

Additional observations from a re-analysis of the deposited data

Results flagged for a closer look

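Peg3, a paternally expressed imprinted gene, stood at 58.7 CPM in embryo 2 of the group of JF1/Ms x C57BL/6 that was called parthenogenetic, far from 5.46 to 8.96 CPM in the 3 others, and against 4.75 to 10.3 CPM in the 1PN embryos and 0 to 30.4 CPM in the 2PN embryos. Chance sets a sample apart in this way in about 1 in 20 groups.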

How the results depend on the processing

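The count of 2 genes past edgeR's threshold became 0 in a fit of this cross alone, 1 with DESeq2 size factors, 1 with library totals alone, 139 with no filter on low counts (33 higher and 106 lower), 9 with the older fit (5 higher and 4 lower) and 1 without 2PN embryos 3, 6, 8, 18 and 21. It was 681 with DESeq2, 149 with DESeq2 without those 5 embryos and 43 with limma voom. Leaving out a 1PN embryo in turn gave 1 to 2 genes. The alternatives without those embryos, and the older fit, were chosen after seeing the data. For the difference between crosses the count of 0 became 515 with DESeq2, 143 with DESeq2 without the 5 embryos, 5 with limma voom, 186 with no filter and 5 with the older fit. The 11 genes outside the 2PN range became 6 with library totals and 19 without the 5 embryos. The cause of these shifts was not tested.

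Embryos 4, 5 and 6 occur in both groups, but the labels do not tie the numbers to each other, and same-numbered embryos had correlations of deviations of -0.019, -0.110 and 0.149. With a replicate block on these numbers 0 genes passed, and 0 without the block on the same 6 embryos.

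Without embryo 6 the difference in genes with counts was -71.7 (p = 0.905 in an exact permutation test), and it ranged up to 749.8 without embryo 4. With a 1PN embryo left out in turn, 1700016D06Rik ranged from -4.65 without embryo 6 to 4.10 without embryo 5, and Gm34885 from -5.47 without embryo 4 to 3.73 without embryo 5. At the low ends no counts remain in 1PN embryos and the value depends on the prior count. Irx2 likewise ranged from -0.67 without embryo 4 to 4.07 without embryo 6. Pramef6 stood at 0.048 with limma voom, at 0.54 with the replicate block and at 0.45 on the same embryos without it. Over 76 genes, 1250 of 1343 values kept direction and side of the threshold, 74 newly passed, 13 lost the call and 6 changed sign. The median log2 fold change of all genes moved from -0.38 to -0.47 with DESeq2 size factors and to -0.43 with library totals, and was -0.55 with DESeq2 and -0.22 without the 5 embryos. Depth limits rare transcripts, and 3 1PN embryos limit all of them.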

Other observations

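Genes at which an embryo stood alone were counted for each embryo. At 10 CPM or more in the embryo itself, 1PN embryos 4, 5 and 6 exceeded all 21 2PN embryos in 375, 486 and 367 genes, and 2PN embryos exceeded all other 2PN embryos in 282 to 2645 genes with a median of 551. Where the 2PN embryos averaged 10 CPM or more, 1PN embryos lay below all of them in 122, 273 and 113 genes, and 2PN embryos below all others in 65 to 1848 genes with a median of 202. Embryo 5 had the most genes on both sides among the 1PN embryos, while among the 2PN embryos it was embryos 8 and 21 in the first count and embryos 21 and 18 in the second. All 3 1PN embryos were below the 2PN median in the first count, and in the second embryos 4 and 6 were below it and embryo 5 above it. These counts are a description with no test.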
